A study of Mus musculus with 6 samples.

Results

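Myotubularins are phosphatases and phosphatase-like proteins that act on phosphoinositides, the lipids that mark the surfaces of endosomes and autophagosomes. Active members remove the 3-phosphate from phosphatidylinositol 3-phosphate (PI3P), the lipid that draws sorting and tethering proteins to early endosomes, and from its 5-phosphorylated product. Members that lack catalytic residues have no phosphatase activity of their own, and several of them bind an active partner and stabilise or localise it. Mtmr9, one of these, binds Mtmr6 and Mtmr7. Described here are 10 members of the family, Mtmr1, Mtmr2, Mtmr3, Mtmr4, Mtmr6, Mtmr7, Mtmr9, Mtmr10, Mtmr12 and Mtmr14, out of 55471 gene IDs in the table. They were chosen by gene symbol, with their values in the comparison of induced and uninduced cells already known. The values of the members in that comparison are therefore a description and carry no p-value.

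The 6 libraries were made from total RNA of sorted mouse haematopoietic stem cells and came from 2 groups. All of the mice carried the genotype ETV6-RUNX1, an inducible form of a fusion gene found in childhood leukaemia. The uninduced group (n = 3) had no doxycycline, and the induced group (n = 3) received doxycycline in food for 2 weeks. Cells were sorted as Lin- Kit+ Sca1+ CD48- CD150+. The strain, the age and the promoter that drives the fusion are not given in the sources used here, nor whether mice were pooled. No label says that replicates came from separate animals, so the spread between libraries may be partly technical. Libraries from mice given doxycycline without the fusion are not analysed here, so the fusion and doxycycline cannot be told apart.

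Values are in TPM, a length-corrected share of the transcripts of each library, and the depth behind them is unknown. The 13470 genes whose mean over the libraries reached 1 TPM were tested with limma, on log2(TPM + 1). Of these, 1.29% were called higher and 10.2% lower in induced libraries (adjusted p under 0.05). The median gene had a log2 change of -0.35 on this scale. After median-of-ratios scaling, which brings the typical gene to the same level in each library, the median was -0.0029, and 2.84% were called higher and 3.21% lower. Changes on both scales are given below for each fitted member, and for other genes and lists where a call differs. Among the marker lists, 7 of 9 tested erythroid genes were called higher. The list's summed level was 57.2 to 62.9 TPM in uninduced and 419 to 482 TPM in induced libraries. Globin genes made up most of it, with induced means of 98.5 (Hba-a1), 54.6 (Hba-a2), 177 (Hbb-bs) and 90.6 TPM (Hbb-bt). Epor went the other way, from a mean of 3.37 to 0.485 TPM, and was not called (limma adjusted p 0.0638). The groups overlapped for Klf1, also not called. Of 16 cell-cycle genes, 15 were called lower (13 after median-of-ratios scaling), and their sum went from between 535 and 634 TPM to between 116 and 154 TPM. Of the genes behind the sort, Ly6a (Sca1) was called higher (log2 change 1.33, limma adjusted p 0.00694), and Kit lower on the deposited scale alone (-0.81, adjusted p 0.0354, and 0.220 after median-of-ratios scaling). Slamf1 (CD150) was at 13.1 ± 2.47 TPM in uninduced and 7.53 ± 3.30 TPM in induced libraries (SD, n = 3 each) and did not pass (log2 change -0.78, limma adjusted p 0.155). Cd48 lay at 0 to 3.02 TPM over the 6 libraries. Of 10 stem cell markers 3 were called higher and 1 lower (4 and 1 on the median-of-ratios scale). The megakaryocyte list had 2 higher and 1 lower of 6 tested (2 and 0 after that scaling). The myeloid list had 1 higher of 6 tested (2 after it). Of 12 lymphoid markers 9 were listed at 0 in all 6 libraries, and 1, Cd79b, could be tested. It was at 4.21 to 9.86 TPM in uninduced and 3.11 to 3.85 TPM in induced libraries and was not called (limma adjusted p 0.197). In such bulk samples, fewer cells of a type and less RNA per cell cannot be told apart.

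The members divide by the catalytic loop of the phosphatase domain. Active enzymes of this family carry a histidine followed by a cysteine, which takes up the phosphate, and an arginine 6 codons after the cysteine. The longest complete coding sequence of each member in GENCODE M21 (GRCm38) was translated and searched for this signature, which was present once in 7 of the 10 members and nowhere in Mtmr9, Mtmr10 and Mtmr12. The stretch of 8 codons is shown for 4 members with the signature and for the 3 without it, because the largest change in the family was in a member without it. Capitals mark the codons for the cysteine and the arginine or, in the last 3, the codons aligned with them.
Mtmr6: cacTGTtccgatgggtgggacAGG
Mtmr2: cacTGCagtgatggatgggatCGC
Mtmr3: cacTGCtccgatggctgggatCGG
Mtmr14: cacTGTatctcaggctgggacCGG
Mtmr9: catGGGacagaaggaactgatTCC
Mtmr10: caaGAGgaggaaggcagagacTTG
Mtmr12: ttgGAAgagaatgcttctgatCTC
The loop begins at codon 373 in Mtmr6, 416 in Mtmr2, 412 in Mtmr3 and 328 in Mtmr14. The aligned stretch begins at codon 332 of 545 in Mtmr9, 398 of 771 in Mtmr10 and 390 of 747 in Mtmr12. In these 3 genes neither marked codon encodes the catalytic residue. Mtmr1, Mtmr4 and Mtmr7 also carried the full signature. The aligned stretches of Mtmr9, Mtmr10 and Mtmr12 held no gap.

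Mtmr9, the inactive partner of Mtmr6 and Mtmr7, stood apart from the other members. Its level was 8.76, 9.65 and 8.22 TPM in the 3 uninduced libraries and 93.2, 89.0 and 105.5 TPM in the 3 induced libraries. The groups were far apart, and the libraries within each lay close together. The mean went from 8.88 ± 0.724 to 95.9 ± 8.62 TPM (SD, n = 3 each), 10.8 times the uninduced level. On the log2(TPM + 1) scale the difference was 3.29 (SE 0.20), and 3.67 (SE 0.16) after median-of-ratios scaling. Of the 13470 tested genes 14 had a larger log2 change, and of the 10575 protein-coding genes 8 did. Mtmr9 was the 1 member past the threshold, of 9 that reached the expression minimum. Over all tested genes 1.29% were called higher and 10.2% lower, and nothing is read from this count. Most of the tested erythroid markers and the cell-cycle markers also differed between the groups, and their part in the Mtmr9 difference was not tested.

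**Figure D1:**
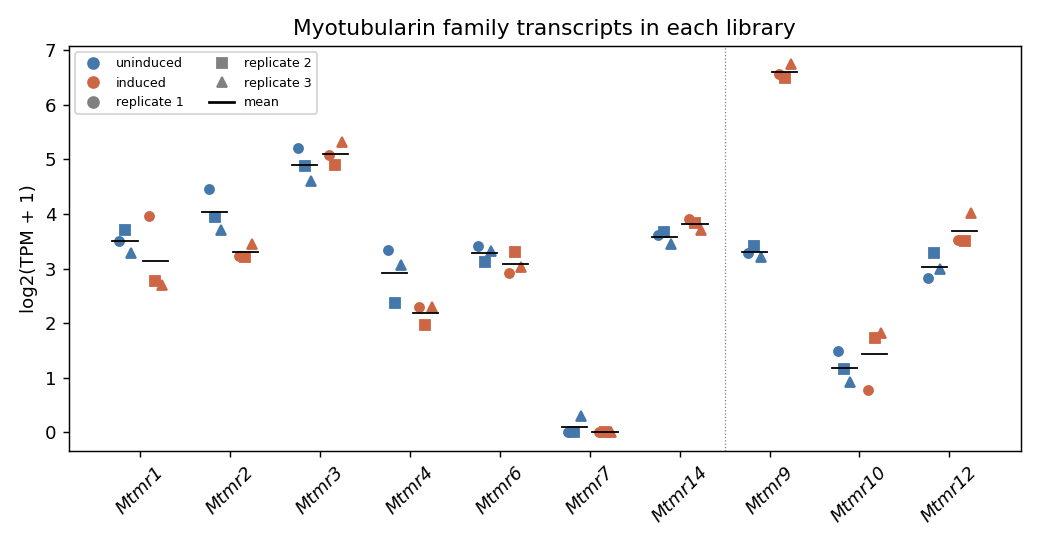
Level of each member as log2(TPM + 1), with 1 point per library (blue uninduced, orange induced, shape by replicate number) and a line at the group mean. Members left of the dotted line carry the catalytic signature. Induced Mtmr9, at 89.0 to 105.5 TPM, lies above every other member.

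Mtmr9 (ENSMUSG00000035078) lies on chromosome 14, from 63519651 to 63543982 on the minus strand of GRCm38. It has 2 protein-coding transcripts, the longer with 10 exons and 1635 coding bases before the stop codon. The table gives 1 value per gene, so the transcripts were not separated. No other annotated gene overlaps it, and no other gene in the annotation has a symbol beginning with Mtmr apart from the members and Mtmr11. Its GC content of 44.7% lies within the range of the members, 40.02% to 48.15%.

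Mtmr6, the active partner of Mtmr9, was at 9.59, 7.64 and 9.04 TPM in uninduced and 6.54, 8.85 and 7.16 TPM in induced libraries. The groups overlapped. Its log2 change was -0.20 (SE 0.28) on the deposited scale and 0.16 (SE 0.28) after median-of-ratios scaling, so its sign depended on the scale. Mtmr7, a close relative of Mtmr6, was listed at 0 in 5 libraries and at 0.238 TPM in uninduced replicate 3. It did not reach the expression minimum and was not fitted. Within a library the ratio of Mtmr9 to Mtmr6 does not depend on how libraries are scaled. It was 0.913, 1.26 and 0.910 in uninduced libraries, so both transcripts stood at about the same level per length. In induced libraries it was 14.3, 10.1 and 14.7. The mean ratio went from 1.03 ± 0.204 to 13.02 ± 2.58 (SD, n = 3 each). Against the sum of Mtmr6 and Mtmr7 the mean log2 ratio differed by 3.67 between the groups.

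The other inactive members did not share the size of this difference. Mtmr12, an adaptor that binds Mtm1 and Mtmr2, was at 6.12, 8.73 and 6.90 TPM in uninduced and 10.5, 10.4 and 15.1 TPM in induced libraries. Every induced library lay above every uninduced one, and the highest was induced replicate 3. The log2 change was 0.65 (SE 0.29), and 1.007 (SE 0.26) after median-of-ratios scaling. Mtmr12 was below the limit for a call on both scales, and it was called higher when values were rescaled to nuclear protein-coding genes (1.13, SE 0.28). Mtmr10, whose function is little known, was at 1.81, 1.23 and 0.890 TPM in uninduced and 0.722, 2.30 and 2.51 TPM in induced libraries. Its groups overlapped, with induced replicate 1 the lowest of the 6 libraries, and 2 genes on the opposite strand overlap its ends. At levels this close to 1 TPM the log2 change of 0.25 had an SE of 0.46, and it was 0.48 (SE 0.44) after median-of-ratios scaling.

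Among the active members, Mtmr2, a phosphatase whose loss causes a demyelinating neuropathy in humans, was at 20.9, 14.3 and 12.05 TPM in uninduced and 8.42, 8.24 and 9.89 TPM in induced libraries. The groups did not overlap, and uninduced replicate 1 was the highest. The log2 change was -0.74 (SE 0.28), or -0.37 (SE 0.25) after median-of-ratios scaling, where the groups were still apart. Mtmr4, which carries a lipid-binding FYVE domain, was at 9.17, 4.14 and 7.39 TPM and at 3.89, 2.91 and 3.91 TPM. Every induced library was below every uninduced one on the deposited scale, and the groups overlapped after median-of-ratios scaling. Its log2 change was -0.74 (SE 0.36) on the first scale and -0.41 (SE 0.36) on the second.

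Mtmr3, the other member with a FYVE domain, was the most abundant member in uninduced cells. It was at 35.8, 28.4 and 23.2 TPM in uninduced and 32.6, 28.8 and 38.7 TPM in induced libraries, and these overlapped. After median-of-ratios scaling its libraries stood at 29.8, 22.5 and 21.9 against 36.5, 34.7 and 40.9, with no overlap, and its log2 change went from 0.20 (SE 0.23) to 0.59 (SE 0.19). Mtmr14, a phosphatase also called Jumpy that has been linked to autophagy, was at 11.2, 11.8 and 9.86 TPM and at 14.04, 13.2 and 12.003 TPM. Induced libraries were higher by a small margin, with a log2 change of 0.24 (SE 0.24), or 0.61 (SE 0.22) after median-of-ratios scaling. Mtmr1, a close relative of Mtm1 and Mtmr2, was at 10.4, 12.1 and 8.77 TPM and at 14.6, 5.80 and 5.52 TPM. Induced replicate 1 was the highest of its 6 libraries and the other 2 induced libraries were the lowest. Its log2 change of -0.36 (SE 0.37) became 0.0050 (SE 0.36) after median-of-ratios scaling.

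The members' median log2 change was 0.20 over the 9 fitted, beside -0.35 for all tested genes. After median-of-ratios scaling these medians were 0.48 and -0.0029. Of these 9, 1 was called higher and 0 lower on both scales, where 1.29% and 10.2% of all tested genes were on the deposited scale. The groups did not overlap for 3 members that were higher and 2 that were lower in induced libraries. Over all tested genes these shares were 4.83% and 28.2%. After median-of-ratios scaling the members' counts were 4 higher and 1 lower, beside 13.4% and 14.5% of all tested genes. The members were proposed with this comparison in view, so nothing is read from these counts.

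**Figure D2:**
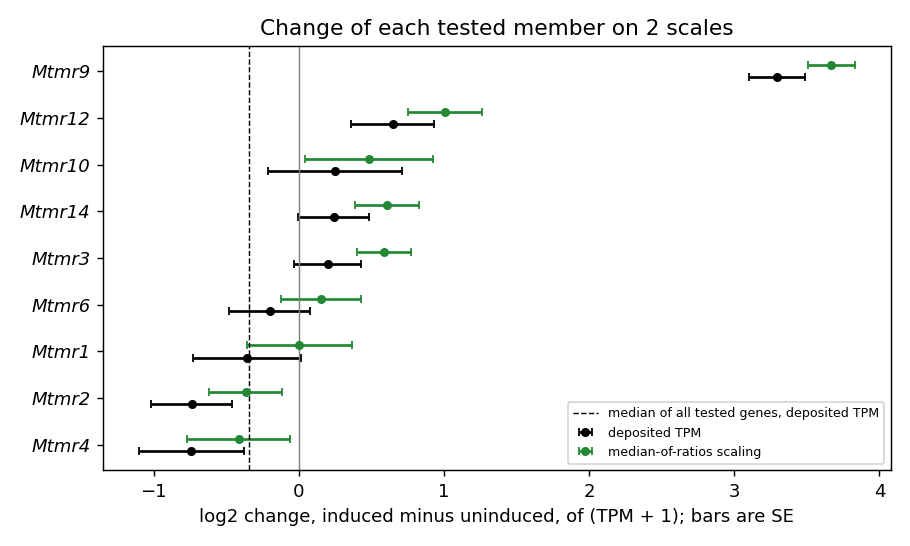
Log2 change of (TPM + 1), induced minus uninduced, for the 9 members that reached the expression minimum, with SE bars, on the deposited scale (black) and after median-of-ratios scaling (green). The dashed line is the median of all tested genes at -0.35. Mtmr9 lies at 3.29 and 3.67, and the next highest member, Mtmr12, at 0.65 and 1.007.

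The make-up of the family differed between the groups. In uninduced cells the order of mean levels ran from Mtmr3 (29.1 ± 6.31 TPM) through Mtmr2 (15.7 ± 4.57 TPM) to Mtmr14, Mtmr1, Mtmr9, Mtmr6, Mtmr12 and Mtmr4, then Mtmr10 (1.31 ± 0.468 TPM) and Mtmr7 (SD, n = 3 each). From Mtmr14 down to Mtmr4, with means between 10.9 and 6.90 TPM, each gene's range overlapped that of the next. Over longer steps, every Mtmr14 library lay above all those of Mtmr9, Mtmr6, Mtmr12 and Mtmr4, and every Mtmr1 library above those of Mtmr12. In induced cells Mtmr9 stood first and apart, followed by Mtmr3 (33.3 ± 5.01 TPM). Next came Mtmr14 and Mtmr12, whose ranges overlapped, and then Mtmr2, Mtmr1 and Mtmr6, each overlapping the next. The wide range of Mtmr1 also took in that of Mtmr14 and part of that of Mtmr12. Mtmr4 and Mtmr10 (1.84 ± 0.976 TPM) lay below these, each apart from its neighbours.

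Mtmr9 made up 7.71%, 9.85% and 9.50% of the summed TPM of the 10 members in uninduced libraries. In induced libraries it made up 50.5%, 52.5% and 52.7%. Such shares do not depend on library scaling. The 9 other members together summed to 90.5 ± 13.4 TPM in uninduced and 88.9 ± 7.49 TPM in induced libraries (SD, n = 3 each), with overlapping groups on the deposited scale. After median-of-ratios scaling that sum was 77.0 ± 9.15 and 99.8 ± 2.65 (SD, n = 3 each), with every induced library above the uninduced ones. As shares, the 7 members with the catalytic signature held 82.3% ± 2.74 of the members' TPM in uninduced and 40.6% ± 2.50 in induced libraries (SD, n = 3 each). Their summed level overlapped between the groups, at 70.6 to 96.9 TPM and 67.8 to 80.1 TPM, and the share includes Mtmr9 in its total. The share of Mtmr10 and Mtmr12 overlapped, at 8.72% ± 1.61 and 7.46% ± 1.35 (SD, n = 3 each), while their summed level did not, at 7.79 to 9.96 TPM and 11.2 to 17.6 TPM. The second inactive member with an active partner in the list, Mtmr12, stood to Mtmr2 at 0.293, 0.609 and 0.573 in uninduced and at 1.25, 1.26 and 1.53 in induced libraries. These ratios did not overlap either, and their mean log2 difference was 1.52.

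**Figure D3:**
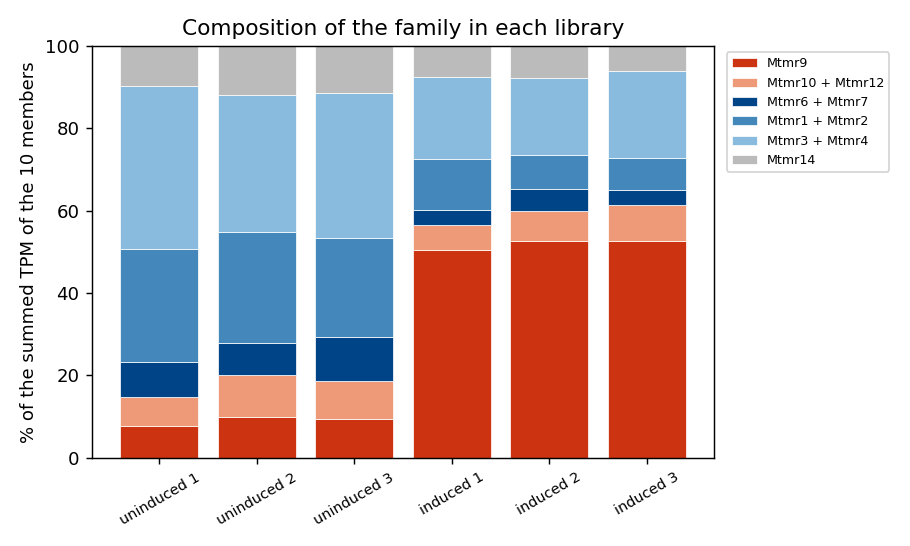
Share of the summed TPM of the 10 members held by Mtmr9, by the other inactive members, and by the active members grouped by relatedness, in percent, with 1 bar per library. Mtmr9 takes 7.71% to 9.85% in the uninduced and 50.5% to 52.7% in the induced libraries.

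The genes around Mtmr9 were examined after its value was seen, in a window of 500 kb on each side that was also set then. The window holds 24 other genes of the table, of which 7 reached the expression minimum. The antisense gene Gm15918 (chromosome 14, 63602524 to 63607372, minus strand), 58542 bases beyond the start of Mtmr9, had 8.17, 3.27 and 4.09 TPM in the induced libraries, while all 3 uninduced libraries list it at 0. It was higher by 2.55 on the log2(TPM + 1) scale (SE 0.45) and passed the threshold (limma adjusted p 0.00807, and 0.0102 after median-of-ratios scaling). It reached the expression minimum through the induced libraries alone, so a difference was built into its selection for testing. Xkr6 (63606503 to 63820809, plus strand), which encodes a membrane protein and overlaps the start of Gm15918 on the opposite strand, was at 0.817, 1.498 and 2.22 TPM and at 4.37, 4.54 and 3.59 TPM. Its groups did not overlap, and it did not pass (log2 change 1.07, SE 0.39, limma adjusted p 0.104, and 0.0753 after median-of-ratios scaling). Whether reads were counted by strand is not given in the sources used here, so reads of this pair may not be told apart where they overlap.

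Of the other tested genes in the window, Fam167a, the nearest one on the far side of Mtmr9, was at 3.55, 2.09 and 1.09 TPM and at 1.60, 1.24 and 2.17 TPM (limma adjusted p 0.780). Ctsb and Neil2 did not pass either (limma adjusted p 0.778 and 0.464). Fdft1, an enzyme of sterol synthesis, and Pinx1, a telomerase inhibitor, fell on the deposited scale, by 1.54 (limma adjusted p 0.0243) and by 1.86 (limma adjusted p 0.0253). After median-of-ratios scaling their log2 changes were -1.20 and -1.52, and neither passed (limma adjusted p 0.0882 and 0.0828). The gene next to the end of Mtmr9, Tdh, 10559 bases away, was listed at 0 in all 6 libraries. In the same windows around the 9 other members, 99 genes were tested, of which 1 was called higher, near Mtmr4, and 12 lower, 7 of them near Mtmr3, where 1.29% and 10.2% of all tested genes were. On the median-of-ratios scale these counts were 2 and 1, beside 2.84% and 3.21%. Whether the Mtmr9 window differs from these was not tested.

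**Figure D4:**
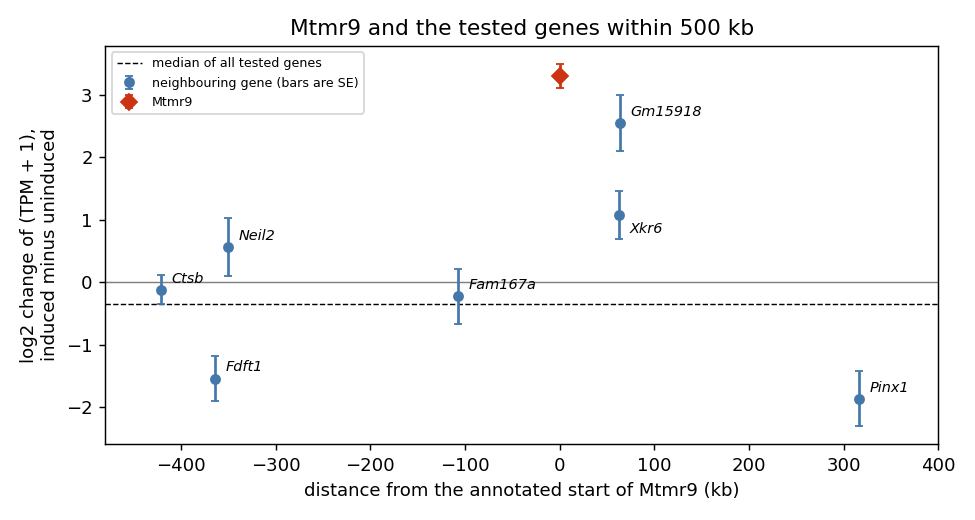
Log2 change of (TPM + 1), induced minus uninduced, with SE bars, for Mtmr9 and the 7 tested genes within 500 kb, against the distance of each annotated start from that of Mtmr9 in kb. Gm15918 at 2.55 and Xkr6 at 1.07 lie on one side, and Fam167a at -0.22 is the nearest on the other.

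Other members lie on chromosome X (Mtmr1, from 71364760), 9 (Mtmr2, from 13748410), 11 (Mtmr3, from 4480868, and Mtmr4, from 87592162), 14 (Mtmr6, from 60265228), 8 (Mtmr7, from 40551095), 7 (Mtmr10, from 64287653), 15 (Mtmr12, from 12205028) and 6 (Mtmr14, from 113237843). Mtmr6 shares a chromosome with Mtmr9 and lies outside its window. Promoter windows around each start were taken from RefSeq (GRCm38.p6) and matched 6 of the 10 members. Mtmr3, Mtmr4, Mtmr7 and Mtmr9 have no entry. The core motif bound by RUNX proteins, TGTGGT on either strand, occurred in 1 of 3 windows of Mtmr2 and in none of Mtmr1, Mtmr6, Mtmr10, Mtmr12 and Mtmr14. Of all 27025 genes in that table, 18.9% had a window with the motif.

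The family genes outside the list gave no call. Sbf1 (also Mtmr5), an inactive partner of Mtmr2 that activates Rab proteins, was at 48.5, 53.4 and 39.2 TPM in uninduced and 25.7, 29.6 and 31.6 TPM in induced libraries. The groups did not overlap, and the log2 change of -0.67 (SE 0.20, limma adjusted p 0.0588) became -0.28 after median-of-ratios scaling (limma adjusted p 0.373). Sbf1 passed when uninduced replicate 3 was left out (-0.80, limma adjusted p 0.0496) and at a minimum of 5 TPM (limma adjusted p 0.0448). Sbf2, its relative, had a limma adjusted p of 0.773, and Mtm1, the muscle disease gene that names the family, 0.952. Mtmr11, an inactive member, had 0.121, 0.177 and 0.258 TPM in induced libraries and 0 in every uninduced one, below the expression minimum. Mtmr8 was not analysed here.

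The wider pathway, the genes that make, read and remove these lipids, was compared in lists drawn up by function. With the family genes above, 80 genes of these 7 lists could be tested. Of them 0 passed in either direction on the deposited scale with limma, while 14 had an unadjusted p under 0.05, 13 of these lower. Over all tested genes 1.29% were called higher and 10.2% lower, and 27.9% had an unadjusted p under 0.05. The median log2 change of the 80 was -0.10. After median-of-ratios scaling 3 genes passed, all higher, and the median was 0.27. On that scale 11 had an unadjusted p under 0.05, 10 of these higher, beside 21.8% of all tested genes. The direction of these unadjusted counts thus depended on the scale. Rescaling to nuclear protein-coding genes gave the same 3 and Pik3cg, the catalytic subunit that acts below G protein-coupled receptors (log2 change 0.94, limma adjusted p 0.0447).

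Genes that make PI3P had the highest median, at 0.41 over 8 tested genes. Pik3r4, the regulatory subunit of the kinase that makes PI3P on endosomes, was at 8.33, 10.4 and 4.10 TPM in uninduced and 12.4, 14.7 and 21.5 TPM in induced libraries. No induced library reached down to the uninduced ones. Its log2 change was 1.04 (SE 0.36), short of the threshold (limma adjusted p 0.0881). Median-of-ratios scaling took it to 1.41, past the threshold (limma adjusted p 0.0346). Pik3c3, the catalytic subunit of the same kinase, was at 14.2 to 19.4 TPM and at 15.1 to 17.9 TPM (limma adjusted p 0.920). Nrbf2 and Pik3c2g were listed at 0 in all 6 libraries. None of the 3 genes of the complex that makes the 5-phosphorylated product of PI3P passed with limma (1 at an unadjusted p under 0.05, lower, on both scales). Fig4, a subunit of that complex, was at 10.7, 13.5 and 8.33 TPM and at 4.83, 5.39 and 4.80 TPM (log2 change -0.96, SE 0.30, limma adjusted p 0.0630).

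Of the proteins that bind PI3P and related lipids, 24 were tested, and none was called on either scale with limma (4 at an unadjusted p under 0.05 on the deposited scale, all lower, and 2 after median-of-ratios scaling, both higher). Eea1, the tether of early endosomes, was at 10.5 to 20.04 TPM and at 6.73 to 12.5 TPM (limma adjusted p 0.332). None of 10 endosomal Rab genes and their regulators was called on either scale (3 at an unadjusted p under 0.05 on the deposited scale, all lower, and 0 after median-of-ratios scaling). Rab7, which marks late endosomes, was at 56.8 to 68.6 TPM and at 40.5 to 49.2 TPM (log2 change -0.51, limma adjusted p 0.0934, and -0.12 with 0.690 after median-of-ratios scaling). The 16 other phosphoinositide phosphatases gave no call on either scale (2 at an unadjusted p under 0.05 on the deposited scale, both lower, and 1 after median-of-ratios scaling, higher). Of 16 other lipid kinase genes none was called on the deposited scale (2 at an unadjusted p under 0.05, both lower). After median-of-ratios scaling 4 had an unadjusted p under 0.05, all higher. Pik3r1 and Pik3cd, a regulatory and a catalytic subunit of the kinase downstream of growth factor receptors, passed after median-of-ratios scaling, at 0.77 (limma adjusted p 0.0221) and 0.66 (limma adjusted p 0.0289). On the deposited scale they were at 0.37 (limma adjusted p 0.191) and 0.27 (limma adjusted p 0.370).

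**Figure D5:**
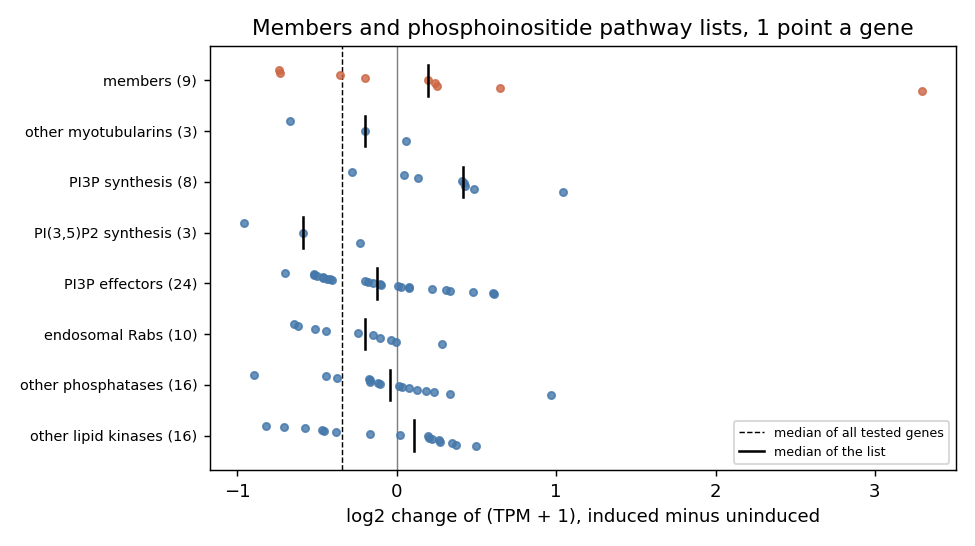
Log2 change of (TPM + 1), induced minus uninduced, with 1 point per tested gene, for the members (orange) and the 7 lists (blue), with the number of genes in brackets. Short black lines are list medians, from -0.59 to 0.41, and the dashed line is the median of all tested genes at -0.35.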

How the data were processed

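Transcript levels were measured by total RNA sequencing in 6 libraries, grouped by their titles. The authors deposited 1 table of gene-level TPM values. Per the submitters' processing notes, HISAT2, StringTie and the build GRCm38 were used, while versions, annotation release and read filters are not given in the sources used here. Those notes also name DESeq2, and results from it are not used here. The deposited table also gives the GC content of each gene in percent, per the file headers. Its 60496 rows were summed per gene ID (5025 repeat an ID, none of them a member), and each column totals 999976 to 999993 TPM. TPM keeps no depth, so no counting interval is given.

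Tests used limma (version 3.58.1, R 4.3.3) on log2(TPM + 1) for genes averaging 1 TPM or more, with moderated variances with a trend, two-sided, with Benjamini-Hochberg adjustment over all tested genes and a threshold of 0.05. A log2 change on this scale understates the change of low genes. Simulated data with known changes were used to check the fit. Ratios and shares used TPM within a library, with no pseudocount. Coding sequences came from GENCODE M21 and were aligned with mafft 7.526, except Mtmr14, whose signature was found by search. The members and lists were chosen with earlier results of these data known. The text names all members, the other family genes, the sort genes and pathway genes past the threshold. Marker genes past the threshold, which the rule also names, are given by count. Pathway genes named without a call, and all neighbours, were picked after their values were seen. Alternatives were other pseudocounts, filters and scalings, no variance trend, the replicate number as a block, and each library left out in turn.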

Additional observations from a re-analysis of the deposited data

How the results depend on the processing

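Mtmr9 was chosen on this comparison, so its values under the alternatives describe the same libraries and add no support. Its log2 change was 3.22 to 3.35 when 1 library was left out, and the Mtmr9 to partner log2 ratio difference of 3.67 was then 3.57 to 3.85, and 3.50 with a pseudocount of 1 in both terms. Of 125 recomputed log2 changes of members, 112 stayed within 1 SD, a wide tolerance for small changes. The 13 that moved came from rescaling, except that of Mtmr9 with a pseudocount of 5 (2.86). Those of Mtmr2, Mtmr3, Mtmr6, Mtmr9, Mtmr12 and Mtmr14 moved after median-of-ratios scaling and after protein-coding rescaling. Mtmr9 was then at 3.67 and 3.83. Against the fit with all libraries, leaving out 1 changed the values of Mtmr1, Mtmr10, Mtmr3 and Mtmr6 by over 1.5 times, within 1 SD. Mtmr1 ran from -0.77 without induced replicate 1 to -0.14 without induced replicate 3. Mtmr10 was at 0.58 and 0.063 without the same libraries. Mtmr3 ran from 0.35 without uninduced replicate 1 to 0.052 without uninduced replicate 3. Mtmr6 ran from -0.31 without induced replicate 2 to -0.12 without induced replicate 1. Members past the threshold became 2, with Mtmr12, after rescaling to nuclear protein-coding genes. That scale called 435 of all 10562 tested genes higher and 451 lower, against 174 and 1375 of 13470 on the deposited scale. The 0 pathway genes became 1 at a minimum of 5 TPM, 3 after median-of-ratios scaling and 4 after protein-coding rescaling. Leaving out 1 library gave 0 to 1 of them. The count over all genes, 1549, was 752 with no filter, 814 after median-of-ratios scaling, 886 after protein-coding rescaling and 767 with no variance trend. Leaving out 1 library gave 611 to 1276, and leaving out any library but uninduced replicate 3 lowered it by over 1.5 times. Fewer samples enter those fits, and for the other counts the cause was not tested. In a fit with a replicate block the count was 902, 882 of them among the 1549, and Mtmr9 stayed the 1 member called. Same-numbered libraries did not deviate together over all tested genes (correlations of -0.015 to 0.021). This shows no pairing by number, and it cannot exclude one that affects few genes. Depth is unknown, so Mtmr7 and Mtmr11, at or near 0 TPM, cannot be called absent.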
